A study of Mus musculus with 9 samples.

Results

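CD8 and cytotoxic granule transcripts were followed through conjunctiva, the mucosa on the inside of the eyelids and over the sclera, of mice with ovalbumin-induced allergic eye disease. The 7 genes were taken by symbol from a deposited table of 20603 genes: Cd8a and Cd8b1 (the CD8 chains), Gzma, Gzmb and Nkg7 (granule proteins), Itgae (the CD103 chain) and Ccl5 (a chemokine). All 7 were found and all 7 passed the filter on low counts, as did 15613 genes in all. They were selected on their high levels in challenged over unchallenged control mice, so those values are given as a description without a test. The challenged Vegfr3iLECko libraries were not used for that choice, but every comparison below shares a control group with it.

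The libraries fell into 3 groups of 3, and each library pooled the conjunctiva of 3 mice on a C57BL/6j background. Challenged Vegfr3iLECko mice (Vegfr3 fl/fl;Prox1CreERT2) lose the lymphatic growth factor receptor Vegfr3 after tamoxifen, through a Cre recombinase driven by Prox1, a transcription factor of lymphatic endothelial cells. Challenged Ctrl mice were Vegfr3 fl/fl littermates without the Cre and received the same challenge, which was 28 days of ovalbumin eye drops (250 µg in 5 µL each day) in the right eye. Unchallenged Ctrl mice were Vegfr3 fl/fl. The labels do not say which eye or which animals the unchallenged tissue came from. All groups had 5 intraperitoneal doses of tamoxifen (75 mg/kg) at 5 weeks of age. All were immunised at 6 weeks with 250 µg ovalbumin, 0.3 µg pertussis toxin and 5 mg aluminum hydroxide, and challenge began 14 days later. Unchallenged Vegfr3iLECko mice were not analysed here, so an effect of genotype without challenge cannot be told apart from one under challenge.

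CD8 is the co-receptor with which cytotoxic T lymphocytes hold MHC class I molecules while their antigen receptor reads the bound peptide. On contact, such cells and natural killer (NK) cells release granules whose perforin lets serine proteases, the granzymes, into the target. In mucosal epithelia many CD8 T cells are resident and carry the integrin CD103, which binds E-cadherin on epithelial cells. Activated T cells secrete Ccl5, which draws in further leukocytes through chemokine receptors.

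Since the 7 transcripts were high and low in the same groups, the stretches before their start sites are shown for the 4 genes that RefSeq's promoter table (GRCm38.p6) lists by symbol. Each is the 250 bases before the annotated start, read 5′ to 3′ along the gene: chr6:71373177-71373426 (+ strand) for Cd8a, chr13:113100982-113101231 (- strand) for Gzma, chr14:56262335-56262584 (- strand) for Gzmb and chr7:43436888-43437137 (+ strand) for Nkg7. Capitals mark matches on either strand to TGNGGT, the core bound by RUNX factors, and to AGGTGT, the core bound by T-box factors such as T-bet and Eomes. No marked matches overlapped.
Cd8a: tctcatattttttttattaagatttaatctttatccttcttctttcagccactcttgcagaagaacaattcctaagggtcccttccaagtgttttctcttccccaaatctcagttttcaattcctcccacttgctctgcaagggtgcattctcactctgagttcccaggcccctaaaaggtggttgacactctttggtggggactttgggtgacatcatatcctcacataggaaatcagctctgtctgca
Gzma: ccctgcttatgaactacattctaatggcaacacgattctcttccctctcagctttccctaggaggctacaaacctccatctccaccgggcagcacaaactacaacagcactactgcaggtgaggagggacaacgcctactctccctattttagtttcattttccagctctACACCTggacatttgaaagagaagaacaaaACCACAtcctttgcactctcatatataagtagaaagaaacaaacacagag
Gzmb: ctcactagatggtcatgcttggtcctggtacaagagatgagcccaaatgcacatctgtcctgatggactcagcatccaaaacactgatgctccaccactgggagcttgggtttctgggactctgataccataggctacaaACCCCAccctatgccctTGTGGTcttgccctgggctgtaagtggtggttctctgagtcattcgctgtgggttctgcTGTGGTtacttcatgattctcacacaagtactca
Nkg7: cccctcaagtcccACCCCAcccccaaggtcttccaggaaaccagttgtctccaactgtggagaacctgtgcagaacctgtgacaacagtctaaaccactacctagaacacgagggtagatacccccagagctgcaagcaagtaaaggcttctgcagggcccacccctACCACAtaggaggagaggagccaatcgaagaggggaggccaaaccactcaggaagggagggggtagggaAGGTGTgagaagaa
The loose RUNX pattern was found before Gzma, Gzmb and Nkg7, with 1, 3 and 2 matches. The T-box core was found before Gzma and Nkg7, with 1 match each. The Gzmb match at 110 bases and the Nkg7 match at 237 bases read ACCCCA, or TGGGGT on the other strand, which is not the stricter RUNX core. In the Gzma stretch the RUNX and T-box matches begin 50 and 80 bases before the start site. In Nkg7 the T-box core begins 14 bases before it. Neither was found before Cd8a in this window. Of 32851 such stretches in the table, 40.1% hold the loose RUNX pattern and 11.8% the T-box core, so a match is a description of the letters only.

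Total counts were 16490050 to 24746836 per library, and the detection floor of 3 reads lay at 0.115 to 0.186 CPM (counts scaled to library size with TMM factors). Flt4, which encodes Vegfr3, was at 13.0, 5.07 and 5.32 CPM in challenged Vegfr3iLECko libraries 1 to 3, at 13.4 to 20.3 CPM in challenged Ctrl and at 13.5 to 26.8 CPM in unchallenged Ctrl. Library 1 of the Vegfr3iLECko group thus lay close to the lowest control. Keratins and other epithelial markers took 1.77% to 3.03% of counts in challenged Vegfr3iLECko, 1.56% to 2.65% in challenged Ctrl and 1.68% to 2.57% in unchallenged Ctrl libraries. Epithelium was thus present in every library. Skeletal muscle genes took 0.214% to 0.370%, 0.0311% to 0.0875% and 0.145% to 0.567% of counts in the same order of groups. Challenged Ctrl library 1 stood apart for inflammatory genes, with 1059 CPM of the chemokine gene Cxcl10 against 4.57 and 44.6 CPM in challenged Ctrl 2 and 3.

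The CD8 chains came first in role. In challenged Vegfr3iLECko libraries 1 to 3 the level of Cd8a was 3.43, 9.97 and 5.32 CPM, against 50.7, 23.2 and 28.8 CPM in challenged Ctrl and 3.30, 2.26 and 2.57 CPM in unchallenged Ctrl. Every Vegfr3iLECko library lay below every challenged Ctrl library and above every unchallenged one, though library 1 only just. Group averages of Cd8a came to 6.24 ± 3.37 CPM in challenged Vegfr3iLECko, 34.2 ± 14.6 CPM in challenged Ctrl and 2.71 ± 0.532 CPM in unchallenged Ctrl (SD, n = 3 each). Cd8b1, the chain that pairs with Cd8a on conventional cytotoxic T cells, was at 1.17, 4.31 and 3.60 CPM in challenged Vegfr3iLECko, 17.8, 11.9 and 12.8 CPM in challenged Ctrl and 1.05, 0.421 and 0.997 CPM in unchallenged Ctrl. Its groups were again separate and in the same order, and the unchallenged values rest on 50 reads in all 3 libraries. In whole tissue, fewer cells of a type and less RNA per cell cannot be told apart.

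Between challenged Vegfr3iLECko and challenged Ctrl the log2 fold change was -2.46 (SE 0.43) for Cd8a and -2.23 (SE 0.49) for Cd8b1, which puts the Vegfr3iLECko level 5.51-fold and 4.71-fold lower. Neither passed over all genes by edgeR's quasi-likelihood test with Benjamini-Hochberg adjustment (adjusted p = 0.299 and 0.314). In the other contrasts, Cd8a differed by 3.66 (SE 0.45) between challenged and unchallenged Ctrl and by 1.20 (SE 0.42) between challenged Vegfr3iLECko and unchallenged Ctrl. For Cd8b1 these log2 differences were 4.12 (SE 0.54) and 1.88 (SE 0.52).

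**Figure D1:**
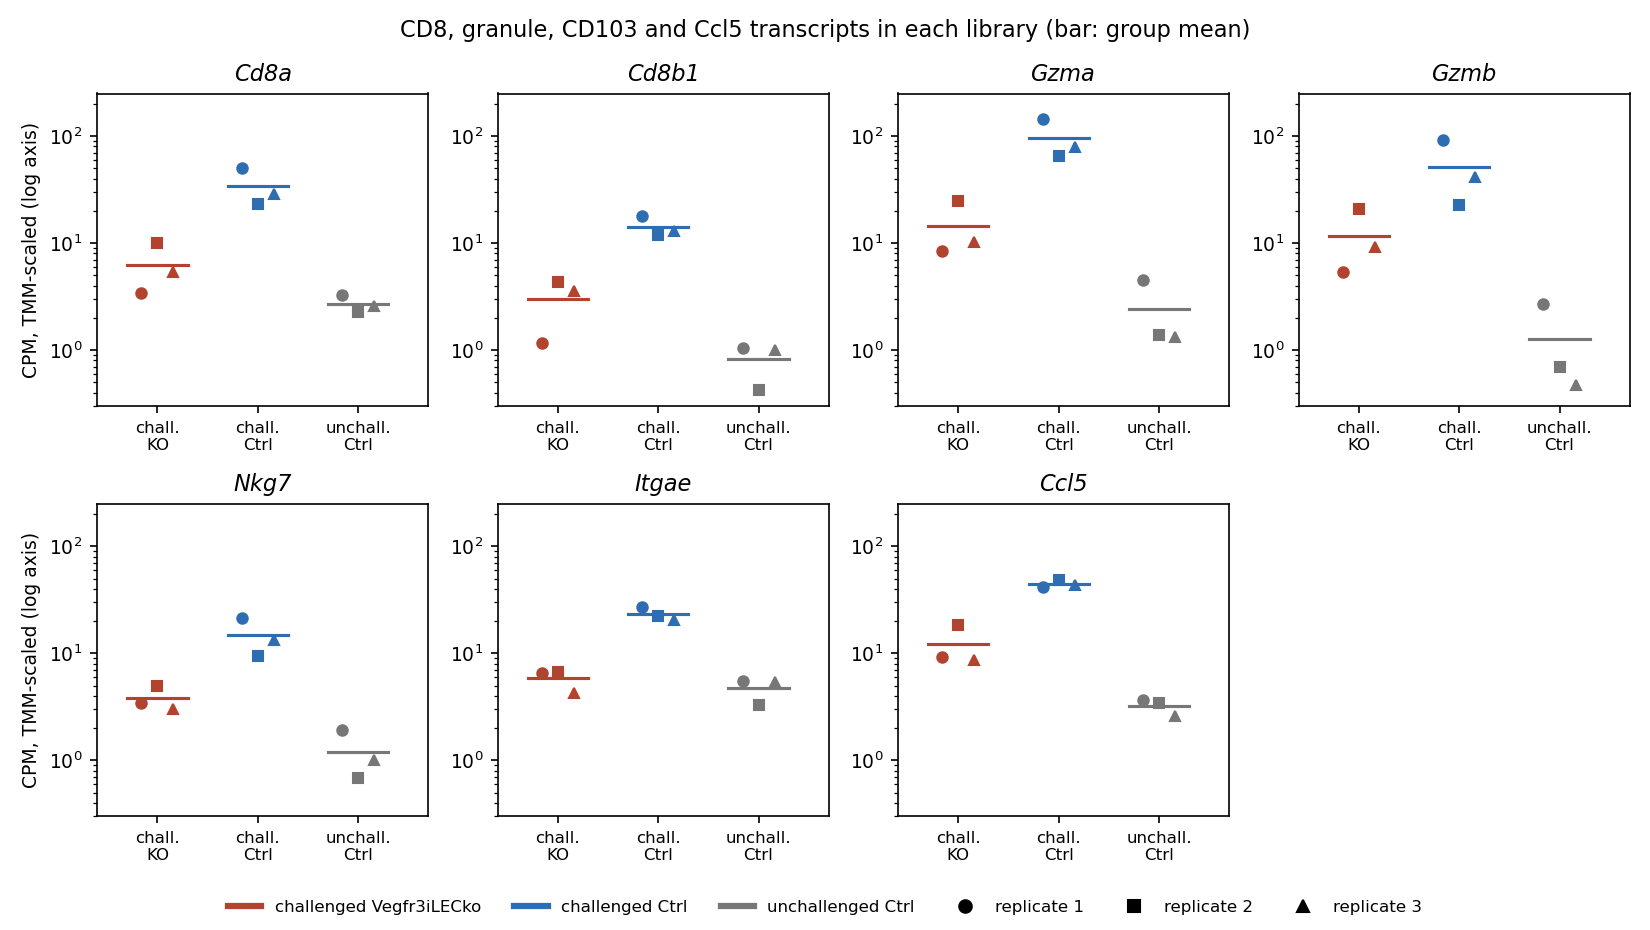
Level of each of the 7 transcripts in CPM on a log axis, with a point per library (shape gives the replicate number) and a bar at the group mean; groups run from challenged Vegfr3iLECko (KO) through challenged Ctrl to unchallenged Ctrl. In every panel all 3 Vegfr3iLECko libraries lie below all 3 challenged Ctrl libraries, and in every panel but that of Itgae they lie above all 3 unchallenged Ctrl libraries.

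Among the granule proteins, the most abundant transcript was that of granzyme A, a protease that cuts after basic residues. Gzma stood at 8.49, 24.5 and 10.2 CPM in challenged Vegfr3iLECko libraries 1 to 3, at 145, 65.2 and 78.3 CPM in challenged Ctrl and at 4.50, 1.38 and 1.31 CPM in unchallenged Ctrl. The 3 groups did not overlap, and the means were 14.4 ± 8.80, 96.2 ± 42.8 and 2.40 ± 1.82 CPM (SD, n = 3). Granzyme B cuts after aspartate and so activates caspases in the target cell. Gzmb was at 5.33, 20.6 and 9.21 CPM in challenged Vegfr3iLECko, 91.3, 22.7 and 41.0 CPM in challenged Ctrl and 2.67, 0.689 and 0.472 CPM in unchallenged Ctrl. Here Vegfr3iLECko library 2 came within a small margin of challenged Ctrl library 2, and the spread within both challenged groups was wide (11.7 ± 7.96 and 51.7 ± 35.5 CPM, SD, n = 3). Nkg7 is a membrane protein of the granules that takes part in their release. Its level was 3.43, 4.95 and 3.03 CPM in challenged Vegfr3iLECko, 21.5, 9.37 and 13.3 CPM in challenged Ctrl and 1.94, 0.689 and 0.997 CPM in unchallenged Ctrl. The 3 groups of Nkg7 were separate as well.

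Set against challenged Ctrl, the Vegfr3iLECko level of Gzma differed by a log2 fold change of -2.74 (SE 0.56, edgeR adjusted p = 0.299), that of Gzmb by -2.14 (SE 0.70, adjusted p = 0.448) and that of Nkg7 by -1.95 (SE 0.43, adjusted p = 0.318). Gzma had the largest difference of the 7 genes, and Gzmb the largest SE. Without challenged Ctrl library 1 the value of Gzmb was -1.45 (unadjusted p = 0.0588), and without Vegfr3iLECko library 2, the highest of its group for all 7 genes, Gzma was at -3.36 and Gzmb at -2.83. Relative to unchallenged Ctrl, Vegfr3iLECko libraries differed by 2.60 (SE 0.58) for Gzma, 3.21 (SE 0.78) for Gzmb and 1.66 (SE 0.45) for Nkg7 on the log2 scale. Between challenged and unchallenged Ctrl the same differences were 5.34 (SE 0.64), 5.35 (SE 0.83) and 3.62 (SE 0.47).

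Itgae encodes CD103, an integrin alpha chain. It was at 6.54, 6.72 and 4.29 CPM in challenged Vegfr3iLECko libraries, 27.0, 22.1 and 20.3 CPM in challenged Ctrl and 5.55, 3.25 and 5.35 CPM in unchallenged Ctrl. Of the 7 genes it was the one whose Vegfr3iLECko libraries overlapped with unchallenged Ctrl. Its log2 fold change was -1.98 (SE 0.28, edgeR adjusted p = 0.271) against challenged Ctrl and 0.31 (SE 0.28, adjusted p = 0.999) against unchallenged Ctrl, and challenged minus unchallenged Ctrl gave 2.30 (SE 0.29). By unadjusted p in the comparison with challenged Ctrl, Itgae ranked 2 of the 15613 genes, Ccl5 ranked 5, Cd8a 7, Gzma 26, Cd8b1 54, Nkg7 58 and Gzmb 421. The choice of the 7 genes used the same challenged Ctrl libraries, so these ranks are a description only.

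Ccl5 was at 9.30, 18.5 and 8.69 CPM in challenged Vegfr3iLECko, 41.4, 48.4 and 43.1 CPM in challenged Ctrl and 3.66, 3.45 and 2.57 CPM in unchallenged Ctrl. The challenged Ctrl libraries were tight (44.3 ± 3.67 CPM, SD, n = 3), and library 1, the highest of that group for the other 6 genes, was its lowest for Ccl5. The log2 fold change was -1.87 (SE 0.30, edgeR adjusted p = 0.286) against challenged Ctrl. Against unchallenged Ctrl it was 1.91 (SE 0.30, adjusted p = 0.999), and between challenged and unchallenged Ctrl it was 3.77 (SE 0.32).

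Counted together, 0 of the 7 genes passed an adjusted p of 0.05 by edgeR between challenged Vegfr3iLECko and challenged Ctrl, as did 0% of all genes. At an unadjusted p under 0.05 all 7 were lower, against 4.53% of all genes tested. All 7 had Vegfr3iLECko libraries wholly below challenged Ctrl libraries, against 6.24% of all genes, and the median log2 fold change was -2.14, against 0.0027 over all genes. By DESeq2, the other tool run, 6 of the 7 passed and were lower, against 0.653% of all genes. Gzmb was the exception (adjusted p = 0.0683), and the smallest value was that of Itgae (adjusted p = 1.5e-07). The genes had been chosen as high in the same challenged Ctrl libraries, so their direction, size and p-values here are not independent of that choice. Skeletal muscle markers were higher in Vegfr3iLECko than in challenged Ctrl libraries for 11 of 11 tested genes without overlap (6.7% of all genes), and the part of tissue makeup in these results was not tested.

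Between challenged Vegfr3iLECko and unchallenged Ctrl, edgeR called 0 of the 7 and 0% of all genes. At an unadjusted p under 0.05, 6 of the 7 were higher, against 1.25% of all genes, and in 6 the groups did not overlap, against 3.26%. DESeq2 called Gzma (adjusted p = 0.00413), Gzmb (adjusted p = 0.00482) and Ccl5 (adjusted p = 4.13e-05), which are 3 of the 9 genes it called higher (0.0576% of all tested). The genes had been chosen as low in the same unchallenged Ctrl libraries, so these counts and p-values are not independent of that choice. In challenged over unchallenged Ctrl, the contrast that chose the genes, the libraries of all 7 did not overlap (7.21% of all genes were higher without overlap), which the choice itself fixed and from which nothing is read.

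**Figure D2:**
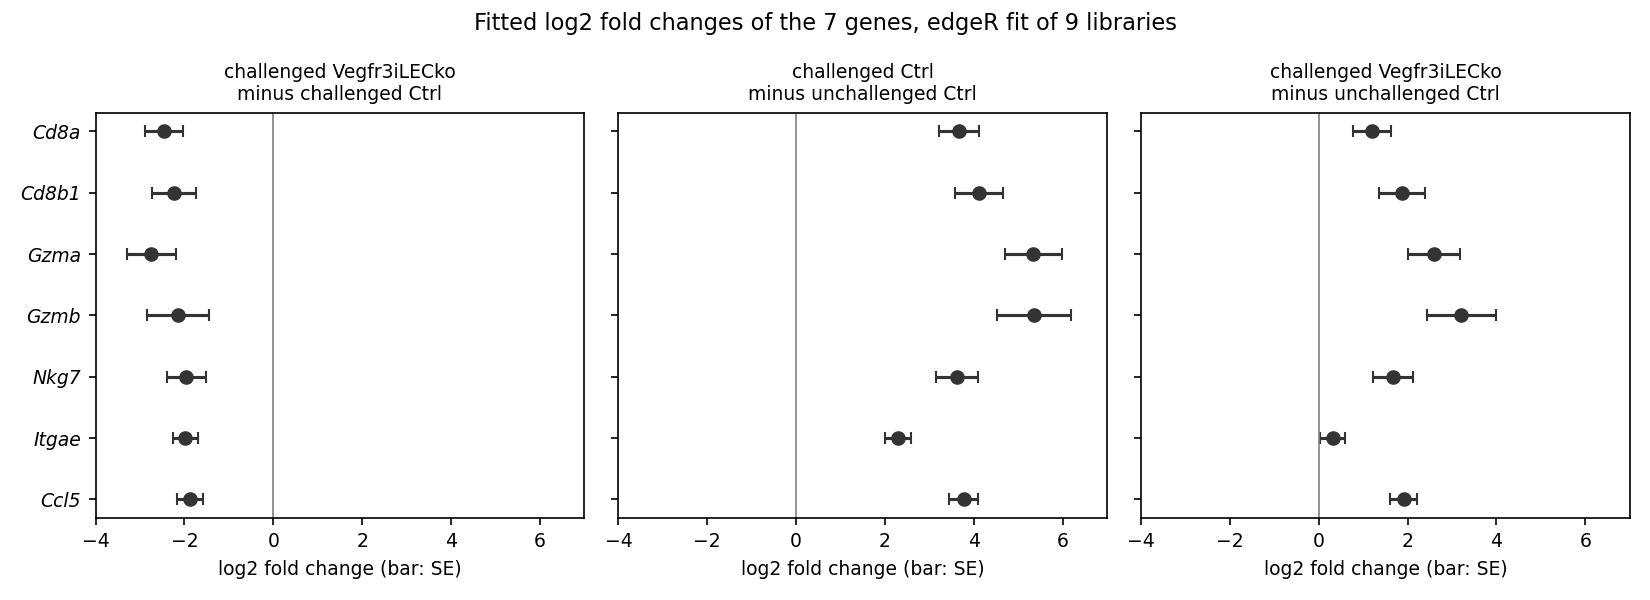
Log2 fold change of each gene in the 3 contrasts, with SE bars, from the edgeR fit of all 9 libraries. The values run from -2.74 to -1.87 for challenged Vegfr3iLECko minus challenged Ctrl, from 2.30 to 5.35 for challenged minus unchallenged Ctrl, and from 0.31 to 3.21 for challenged Vegfr3iLECko minus unchallenged Ctrl; the contrasts share control libraries.

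Levels of different genes were set side by side per kilobase of annotated exon (GENCODE M21). In challenged Vegfr3iLECko the order of mean levels was Gzma (14.3 CPM per kb), Ccl5 (12.7), Gzmb (8.17), Nkg7 (4.16), Cd8b1 (2.04), Cd8a (1.71) and Itgae (1.28). Only Nkg7 and Cd8b1 among these neighbours had library ranges that did not overlap. Read within each library, Ccl5 was also above Gzmb throughout this group. In challenged Ctrl the order was the same, at 95.6, 46.1, 36.0, 16.1, 9.54, 9.41 and 5.05 CPM per kb. There the ranges of Gzma and Ccl5, and of Cd8a and Itgae, did not overlap, while the other neighbours did. Within each of these libraries, however, Gzmb was above Nkg7 and Nkg7 above Cd8b1. In unchallenged Ctrl the order was Ccl5 (3.36 CPM per kb), Gzma (2.38), Nkg7 (1.32), Itgae (1.03), Gzmb (0.889), Cd8a (0.745) and Cd8b1 (0.554), and all neighbours overlapped. Within each unchallenged library Gzma was above Nkg7 and Cd8a above Cd8b1.

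Ratios of per-kilobase levels within a library describe the make-up of the signal free of library size. They were read without a test. Cd8b1 over Cd8a was 0.836, 1.06 and 1.66 in challenged Vegfr3iLECko libraries, 0.858, 1.26 and 1.09 in challenged Ctrl and 0.779, 0.457 and 0.951 in unchallenged Ctrl. The 2 chains thus kept about equal levels in both challenged groups, whose values overlapped. Gzma over Cd8a was 8.96, 8.90 and 6.96 in challenged Vegfr3iLECko, 10.3, 10.2 and 9.83 in challenged Ctrl and 4.94, 2.21 and 1.84 in unchallenged Ctrl. This ratio was close to constant in challenged Ctrl, although Cd8a itself spanned 23.2 to 50.7 CPM there. Each Vegfr3iLECko value of it lay below each challenged Ctrl value and above each unchallenged Ctrl value. Gzma over Gzmb was 2.27, 1.70 and 1.59 in challenged Vegfr3iLECko, 2.27, 4.09 and 2.73 in challenged Ctrl and 2.41, 2.85 and 3.97 in unchallenged Ctrl. All Vegfr3iLECko values of this ratio lay below those of unchallenged Ctrl, and met the lowest of challenged Ctrl. Gzmb over Cd8a was 3.94, 5.25 and 4.38 in challenged Vegfr3iLECko, 4.56, 2.48 and 3.61 in challenged Ctrl and 2.05, 0.773 and 0.465 in unchallenged Ctrl, with overlap between the challenged groups. Nkg7 over Cd8a was 3.98, 1.98 and 2.27 in challenged Vegfr3iLECko, 1.69, 1.61 and 1.84 in challenged Ctrl and 2.34, 1.21 and 1.54 in unchallenged Ctrl, so it was higher in each Vegfr3iLECko than in each challenged Ctrl library. Itgae over Cd8a was 1.52, 0.536 and 0.640, then 0.423, 0.757 and 0.560, then 1.34, 1.14 and 1.65 in the same order of groups, and was lower in every challenged Ctrl than in every unchallenged Ctrl library. Ccl5 over Cd8a was 10.3, 7.02 and 6.19 in challenged Vegfr3iLECko, 3.09, 7.91 and 5.66 in challenged Ctrl and 4.21, 5.78 and 3.79 in unchallenged Ctrl, and the challenged groups overlapped.

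Against Cd3e, a signalling subunit common to all T cells, Cd8a was at 0.771, 2.96 and 2.27 in challenged Vegfr3iLECko, 2.80, 2.55 and 3.33 in challenged Ctrl and 0.785, 0.988 and 0.733 in unchallenged Ctrl. Vegfr3iLECko library 1 had the Cd8a to Cd3e ratio of unchallenged tissue, whereas libraries 2 and 3 were near challenged Ctrl. Gzma over Cd3e was 6.91, 26.4 and 15.8 in challenged Vegfr3iLECko, 29.0, 26.0 and 32.8 in challenged Ctrl and 3.88, 2.18 and 1.35 in unchallenged Ctrl. Itgae over Cd3e varied less, at 1.17, 1.59 and 1.45 in challenged Vegfr3iLECko, 1.19, 1.93 and 1.87 in challenged Ctrl and 1.05, 1.13 and 1.21 in unchallenged Ctrl. The 2 challenged groups overlapped in the Cd8a and Itgae ratios and in that of Gzma to Cd3e.

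**Figure D3:**
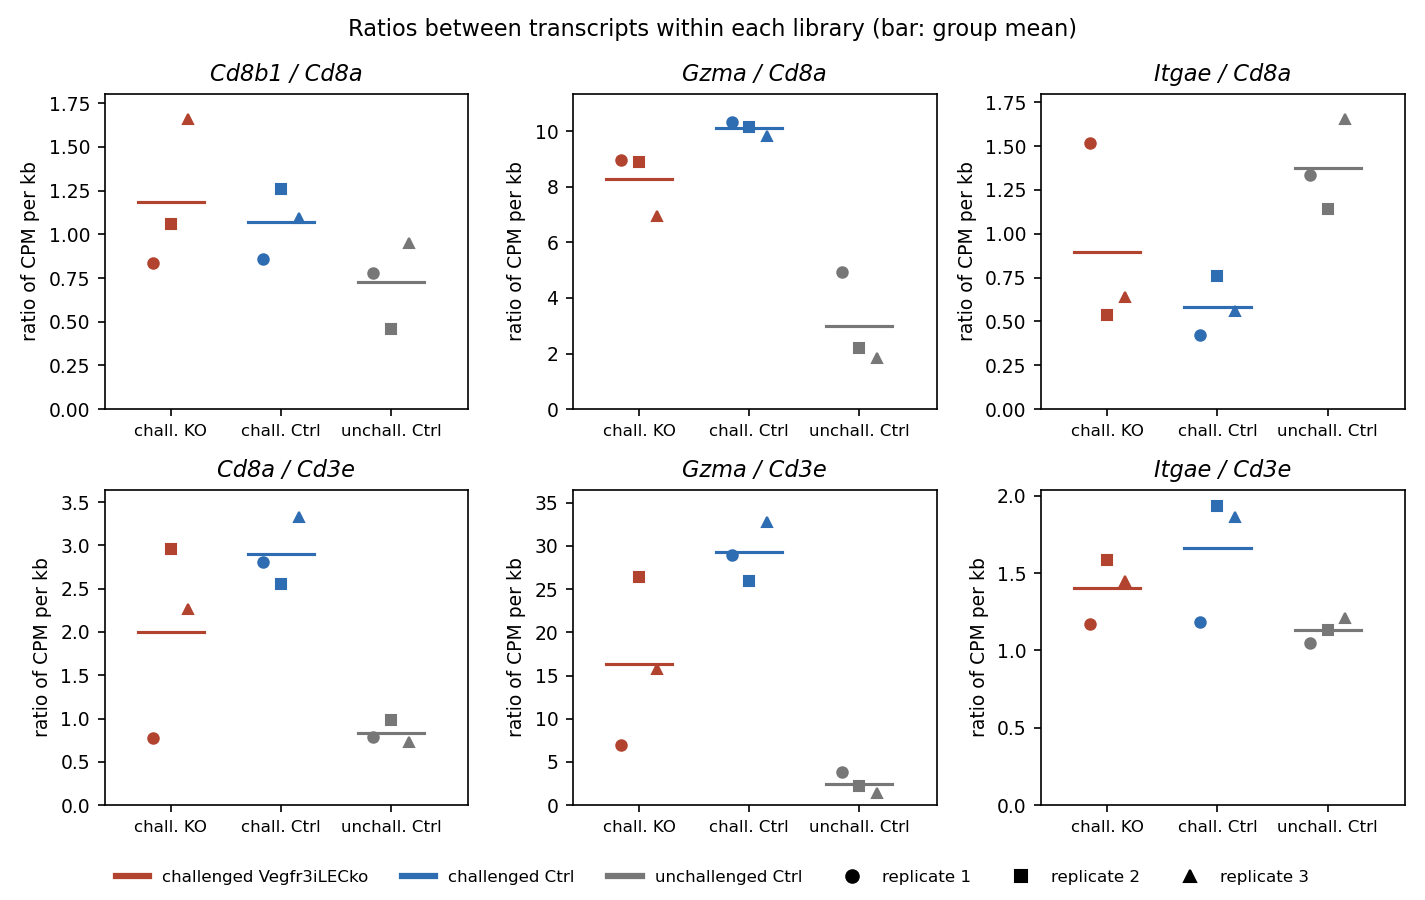
Ratio of per-kilobase CPM between pairs of transcripts in each library (point shape gives the replicate number, bar the group mean), from challenged Vegfr3iLECko (KO) on the left to unchallenged Ctrl on the right. Cd8a over Cd3e in Vegfr3iLECko library 1 (0.771) sits with the unchallenged libraries, and Gzma over Cd8a in challenged Ctrl stays between 9.83 and 10.3.

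The profiles most like the mean profile of the 7 genes were sought among 14157 other genes with a mean of at least 1 CPM, by the root mean square difference of centred log2 CPM over the 9 libraries. The nearest were Ctsw (0.44), Prf1 (0.48), Gzmk (0.57), Trac (0.58) and Batf2 (0.59), where the median of all candidates was 1.59. Within the 7 genes themselves the difference from their mean was 0.28 for Cd8a, 0.29 for Nkg7, 0.31 for Cd8b1 and 0.34 for Ccl5, and 0.64 to 0.73 for Gzma, Gzmb and Itgae. Each of the 7 is part of that mean, which lowers its difference, so these values are not comparable with those of other genes. Prf1 encodes perforin, the pore-forming granule protein, and was at 0.934, 3.18 and 1.20 CPM in challenged Vegfr3iLECko, 8.78, 3.23 and 5.30 CPM in challenged Ctrl and 0.733, 0.383 and 0.367 CPM in unchallenged Ctrl. Ctsw, a cathepsin of cytotoxic lymphocytes, was at 1.95, 3.24 and 0.915 CPM in challenged Vegfr3iLECko, 14.9, 7.62 and 7.47 CPM in challenged Ctrl and 1.57, 0.536 and 0.525 CPM in unchallenged Ctrl. Gzmk, another granzyme, was at 0.279 ± 0.231 CPM in challenged Vegfr3iLECko and 3.05 ± 1.94 CPM in challenged Ctrl, and had 4 reads in all of unchallenged Ctrl. Trac, the constant region of the T cell receptor alpha chain, and Batf2, an interferon-induced transcription factor, were at 3.21 ± 0.290 and 12.1 ± 6.53 CPM in challenged Vegfr3iLECko, and at 14.0 ± 7.65 and 36.3 ± 27.0 CPM in challenged Ctrl.

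Genes of the surrounding pathways and of other cell types were read from 20 lists with 201 entries, of which 166 were tested. In the comparison of challenged Vegfr3iLECko with challenged Ctrl, 0 genes of any list passed over all genes by edgeR, so counts at an unadjusted p under 0.05 are given, against 4.53% lower and 3.95% higher over all genes. Of 15 genes of the alpha beta T cell receptor complex, 12 were lower and 0 higher, with a median log2 fold change of -1.80. Cd3g was at 5.54 ± 1.05 CPM in challenged Vegfr3iLECko and 16.2 ± 4.89 CPM in challenged Ctrl. Thy1, which fibroblasts also express, was at 132 ± 43.2 and 170 ± 26.3 CPM in the same order. In the CD4 and regulatory T cell list 4 of 7 were lower and 1 higher (median -2.33). Il2ra, the high-affinity interleukin 2 receptor chain, was at 3.04 ± 1.65 and 19.9 ± 29.4 CPM, with 53.9 CPM in challenged Ctrl library 1. Cd4 itself was at 1.99 ± 0.879 and 10.1 ± 8.22 CPM, with 19.6 CPM in that library. Its log2 fold change was -2.33 (SE 0.55, edgeR adjusted p = 0.338). Per kilobase, Cd8a over Cd4 was 1.27, 7.81 and 3.82 in challenged Vegfr3iLECko and 2.87, 4.51 and 6.29 in challenged Ctrl, with overlap.

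Of the other granzymes and granule proteins, 6 of 11 tested were lower and 0 higher (median -0.94). The abundant members are expressed in most cells: the lysosomal Lamp1 was at 468 ± 25.2 and 508 ± 39.8 CPM in challenged Vegfr3iLECko and challenged Ctrl, and Ctsc, which activates granzymes by trimming them, at 216 ± 15.2 and 276 ± 39.7 CPM. Granzyme inhibitors had 2 of 4 lower (median -0.73), and the abundant Serpinb6a and Serpinb1a had log2 fold changes of 0.17 (SE 0.14) and -0.33 (SE 0.21). In the list on IL-15, IL-2 and cytotoxic effector control 9 of 12 were lower (median -1.34), with Irf1 at -0.82 (SE 0.30) and Runx1 at -0.39 (SE 0.23). Of 10 MHC class I genes, whose products CD8 binds or which load them, 3 were lower (median -0.66). H2-K1 was at 1613 ± 587 CPM in challenged Vegfr3iLECko and 3229 ± 709 CPM in challenged Ctrl, and H2-D1 at 1810 ± 637 and 2794 ± 618 CPM.

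Tissue residency genes had 6 of 16 lower and 1 higher (median -0.54). Cdh1, the E-cadherin bound by CD103, was at 686 ± 160 and 790 ± 95.4 CPM in challenged Vegfr3iLECko and challenged Ctrl, and Tgfbr2, a receptor for the TGF-beta that induces CD103, at 364 ± 59.5 and 455 ± 37.5 CPM. Among the Ccl5 receptors and related chemokines 6 of 10 were lower (median -1.89). Cxcl10 and Cxcl9, ligands of the receptor Cxcr3, had log2 fold changes of -3.64 (SE 1.54) and -2.86 (SE 1.25), and their level in challenged Ctrl came mainly from library 1.

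Several cell types other than CD8 T cells can hold these transcripts. NK cell and NK receptor genes had 8 of 11 tested lower (median -1.90), and the summed level of the list's 18 genes was 10.1 to 19.1 CPM in challenged Vegfr3iLECko, 32.6 to 92.2 CPM in challenged Ctrl and 4.72 to 23.5 CPM in unchallenged Ctrl. Cd226 and Klrk1, activating receptors that CD8 T cells also carry, had log2 fold changes of -1.61 (SE 0.62) and -1.93 (SE 0.72). All 11 tested genes of the list had negative log2 fold changes. Ncr1, a marker of NK cells, did not pass the count filter and was not tested. It was at 0.467, 0 and 0 CPM in challenged Vegfr3iLECko, 0.680, 0.314 and 0.285 CPM in challenged Ctrl and 0.837, 0.038 and 0 CPM in unchallenged Ctrl, with overlap. Gamma delta T cell genes had 1 of 7 lower (median -0.19) and a sum of 63.5 to 66.1, 62.2 to 68.4 and 57.7 to 74.4 CPM in the 3 groups. The largest part of that sum was Sox13, at mean levels of 43.8, 34.5 and 42.1 CPM. Sox13 was at 0.35 (SE 0.23) and Trdc at 0.03 (SE 0.44), while Trgc2, the 1 lower gene, was at -1.98 (SE 0.39). Type 1 dendritic cell genes had 4 of 8 lower (median -0.91), with sums of 163 to 199, 215 to 379 and 151 to 209 CPM. Within them Tlr3 was at -0.54 (SE 0.26) and Naaa at -0.62 (SE 0.15). None of the defining markers of type 1 dendritic cells was at 0 in any library. The lowest was Xcr1 at 0.177 CPM in challenged Vegfr3iLECko library 2, which was the detection floor of 3 reads in that library. The part of NK and dendritic cells in the results on the 7 genes was not tested.

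Mast cell and basophil genes, of interest because mast cells can express granzyme B, had 0 of 7 lower (median -0.36) and sums of 168 to 206, 172 to 201 and 179 to 216 CPM in the 3 groups, with Kit at 0.24 (SE 0.18) and Mcpt4 at -0.30 (SE 0.45). Plasmacytoid dendritic cell genes had 0 of 5 lower and 1 higher (median -0.12), with Tcf4 at -0.12 (SE 0.24) and Bst2 at -0.21 (SE 0.47). Platelet genes, of interest because platelets store Ccl5, had 0 of 3 lower and 1 higher (median -0.28), with Pf4 at -0.28 (SE 0.35) and Ppbp at -0.37 (SE 1.31). B cell and plasma cell genes had 2 of 3 tested lower (median -3.62), with Ighm at 11.3 ± 6.02 and 139 ± 132 CPM in challenged Vegfr3iLECko and challenged Ctrl and Jchain at 0.864 ± 0.782 and 33.8 ± 29.9 CPM. Macrophage genes had 1 of 6 lower (median -0.69), with Mrc1 at -0.60 (SE 0.45) and Csf1r at -0.78 (SE 0.38). Epithelial genes had 0 of 8 either way (median 0.10), with Krt5 at 0.26 (SE 0.39) and Krt4 at 0.14 (SE 0.29). All 11 muscle genes were higher (median 2.37), with Atp2a1 at 2.37 (SE 0.59) and Acta1 at 1.84 (SE 0.45). Adipocyte genes had 2 of 5 higher (median 1.48), Fabp4 at 1.64 (SE 0.67) and Cfd at 3.08 (SE 1.26). Lymphatic endothelial genes had 1 of 7 lower, Flt4 itself, and 1 higher, with Pdpn at -0.0020 (SE 0.18) and Lyve1 at 0.15 (SE 0.23).

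**Figure D4:**
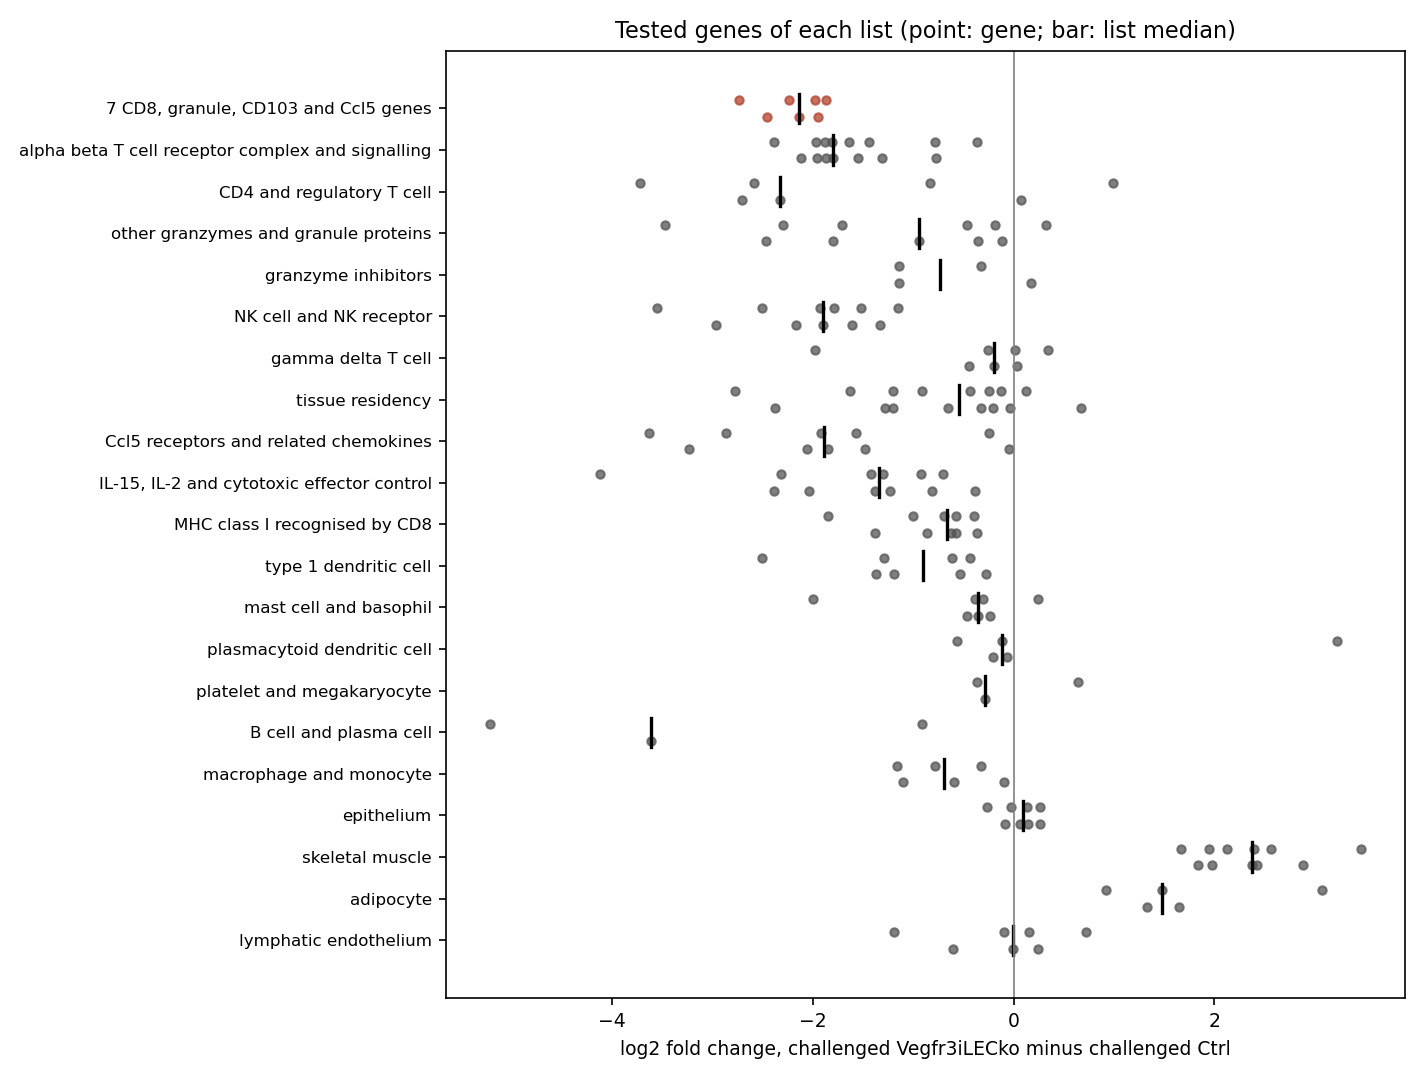
Log2 fold change between challenged Vegfr3iLECko and challenged Ctrl for each tested gene (point) of the 7 described genes and the 20 lists, with list medians as bars. The 7 genes lie between -2.74 and -1.87, and T cell receptor and NK receptor genes have medians of -1.80 and -1.90. Medians are as low or lower for CD4 and regulatory T cell (-2.33), B cell and plasma cell (-3.62) and Ccl5 receptor and related chemokine genes (-1.89). Gamma delta T cell, mast cell and epithelial genes have medians between -0.36 and 0.10, and muscle genes lie above 0.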

How the data were processed

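The authors deposited raw counts of reads per gene symbol, with no normalization, for 9 messenger RNA libraries. Per the submitters' processing notes HISAT2, Bowtie2, DESeq2 and build mm39 were used; the sources used here do not give versions, the counting program, its strand setting or the annotation. Genes were filtered with filterByExpr and scaled with TMM, and all 9 libraries entered a single edgeR 4.0.16 quasi-likelihood fit (R 4.3.3, limma 3.58.1; biological coefficient of variation 31.7%), with two-sided tests and Benjamini-Hochberg adjustment over 15613 genes at 0.05. The script was tested on simulated counts. DESeq2 1.42.0 and 13 other alternatives are given at the end. Log profiles used a pseudocount of 0.5 CPM.

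The members, lists and tests were chosen with earlier results of these data known. From each list the genes called, or otherwise the 2 most abundant, are named, with the 5 nearest profiles; other names were picked after their values were seen, and 1 gene that this rule names is not reported here. No pair of libraries was a copy. p-values measure spread between pools of 3 mice. Deviations of same-numbered libraries correlated at 0.273 to 0.527 between challenged and unchallenged Ctrl. The values were 0.338, -0.168 and 0.353 between challenged Vegfr3iLECko and challenged Ctrl. The labels do not say what a replicate number marks, and the main fit had no term for it. The log2 fold changes and SEs above thus come from an unpaired fit. A fit with the replicate number as a block is given at the end. Floors cover counting error only.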

Additional observations from a re-analysis of the deposited data

How the results depend on the processing

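The sign of each of the 7 log2 fold changes held in all 3 contrasts under all 14 alternatives. For challenged minus unchallenged Ctrl the choice of the genes itself fixed the sign, so nothing is read from it. The other contrasts share control libraries with that choice, so their signs are not independent of it. For challenged Vegfr3iLECko minus challenged Ctrl, the fits that left out 1 library gave -2.97 to -2.07 for Cd8a, -2.58 to -1.83 for Cd8b1, -3.36 to -2.32 for Gzma, -2.83 to -1.45 for Gzmb, -2.19 to -1.58 for Nkg7, -2.09 to -1.80 for Itgae and -2.30 to -1.67 for Ccl5, with 0 of the 7 and 0 genes in all called by edgeR. Values set against unchallenged Ctrl moved more. Without unchallenged Ctrl 1, challenged minus unchallenged Ctrl was 6.15 for Gzma, 6.44 for Gzmb and 4.13 for Nkg7, and challenged Vegfr3iLECko minus unchallenged Ctrl was 3.41 for Gzma and 4.30 for Gzmb. Between challenged Vegfr3iLECko and unchallenged Ctrl the value was 1.98 for Gzma and 2.52 for Gzmb without challenged Vegfr3iLECko 2, and Gzmb was 4.66 in challenged minus unchallenged Ctrl without challenged Ctrl 1. The number of genes called depended on the tool. DESeq2 called 231 genes and 6 of the 7 for challenged Vegfr3iLECko minus challenged Ctrl, 750 genes for challenged minus unchallenged Ctrl, and 14 genes and 3 of the 7 for challenged Vegfr3iLECko minus unchallenged Ctrl. The fit with the replicate number as a block called 22 genes and 2 of the 7 (Itgae, adjusted p = 0.0397, and Ccl5, adjusted p = 0.0354) in the first of these contrasts. There 0.102% of all genes were called lower, and deviations of same-numbered libraries did not all correlate positively. The blocked fit called 267 genes in the second, where they did, against 10 without the block, and 0 in the third. For challenged minus unchallenged Ctrl, 20 genes were called without a low count filter and 1 with only the libraries of both groups, and leaving out 1 library gave 0 to 121. It was 0 without unchallenged Ctrl 2 or 3, 1 without challenged Ctrl 3, 35 without challenged Ctrl 2, 121 without unchallenged Ctrl 1, and 6 and 5 without challenged Vegfr3iLECko 1 and 3. The cause was not tested. The floor of 0.115 to 0.186 CPM limits Gzmb and Cd8b1 in unchallenged Ctrl, where Gzmb had 78 reads and Cd8b1 50.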

Other observations

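These values, picked after they were seen, go with the lists above. Gzmm, a granzyme of innate lymphocytes, was at 1.09, 1.30 and 1.14 CPM in challenged Vegfr3iLECko, 0.990, 0.807 and 1.03 CPM in challenged Ctrl and 1.36, 1.15 and 2.05 CPM in unchallenged Ctrl, so it was the 1 tested gene among 11 of the granule list with a positive log2 fold change between challenged Vegfr3iLECko and challenged Ctrl (0.32, SE 0.40). Of the constant regions of the gamma chain, Trgc2 was at 2.57, 2.12 and 2.63 CPM in challenged Vegfr3iLECko, 13.5, 6.41 and 9.13 CPM in challenged Ctrl and 3.40, 1.65 and 1.73 CPM in unchallenged Ctrl. Trgc1 was at 4.01, 3.66 and 5.89 CPM, 6.80, 2.69 and 3.94 CPM, and 6.28, 4.29 and 4.99 CPM in the same order, and reads of such similar genes can be split between them. Klf2, a transcription factor that keeps T cells in circulation, was the residency gene that was higher in challenged Vegfr3iLECko (48.9 ± 8.19 CPM) than in challenged Ctrl (30.8 ± 4.88 CPM, SD, n = 3), with a log2 fold change of 0.67 (SE 0.21, edgeR adjusted p = 0.422); endothelial cells express it too.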
